A study of Mus musculus with 2 samples.

Results

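Endothelial cells line the blood vessels of the brain, and they were examined here in the preoptic area, part of the anterior hypothalamus. Cells were selected on their own UMI counts, so these genes describe the choice and are no finding. A cell was counted as endothelial if it had at least 500 genes, under 20% mitochondrial UMIs, at least 10 UMIs of Cldn5, Flt1 and Ly6c1 together, at most 3 of the mural genes Vtn, Rgs5 and Pdgfrb, at most 2 of the smooth muscle genes Acta2 and Tagln, and at most 3 of the neuronal genes Snap25 and Syt1. A UMI, or unique molecular identifier, marks 1 captured RNA molecule. This rule found 496 cells among the 17584 that passed the filters on genes and mitochondrial UMIs, 192 of 7709 in the SD+RS library and 304 of 9875 in the SD library. These are 2.49% of the SD+RS cells (exact Clopper-Pearson 95% interval 2.15 to 2.86%) and 3.08% of the SD cells (2.75 to 3.44%).

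Both libraries came from C57BL/6J mice of 9 to 10 weeks, males and females pooled, and were made with Act-seq, a dissociation with transcription blocked, followed by 10x Genomics capture. SD+RS stands for 6 h of sleep deprivation and then 2 h of recovery sleep, and SD for 6 h of sleep deprivation alone, so both groups had been deprived of sleep. The sources used here do not give the number of mice in each pool. Each group was 1 library, so no difference could be set against the spread between replicates, no test was made, and every interval covers counting error only. Levels are UMIs summed over the cells of a library and scaled to all UMIs of those cells, given as CPM, and log2 ratios are SD+RS over SD. Handling, library and treatment cannot be told apart in this design.

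The endothelium of brain vessels forms the blood-brain barrier: tight junctions seal the cells to each other, while carriers and pumps in their membranes select what enters and leaves. Its cells differ along the vessel, from arteries through capillaries to veins, and they respond to blood flow, circulating hormones and inflammatory signals with rapid changes in transcription. Wnt signals from the surrounding tissue maintain the barrier state, and pericytes share the basement membrane with the endothelium.

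The endothelial cells held 752034 UMIs in the SD+RS library and 1319087 in the SD library, with medians of 3050.5 and 3216 UMIs per cell. They were shallower than the other cells, whose medians were 16115 UMIs in the SD+RS library and 8815 in the SD library. The 2 libraries shared 23 barcodes, and no endothelial cell carried any of these. Among cells with at least 10 UMIs of the 3 endothelial genes, the rule left out 261 in the SD+RS library and 447 in the SD library, mostly for mural UMIs (250 and 420 cells). At the threshold, 5 endothelial cells of the SD+RS library and 9 of the SD library had 10 to 14 UMIs of the 3 genes, and 5 in each library fell just outside with 5 to 9. The mural bar was closer to many cells: 13 SD+RS and 31 SD cells had exactly 3 mural UMIs and stayed in, while 14 and 18 with exactly 4 were left out. Sexes were unevenly represented: 125 SD+RS cells and 128 SD cells had Xist UMIs without Y-linked ones, against 24 SD+RS and 75 SD cells with Y-linked UMIs without Xist.

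The label held against markers that the rule did not use. Slco1a4, a barrier carrier of organic anions, stood at 2007 CPM in SD+RS endothelial cells and 1490 CPM in SD endothelial cells, against 24.3 and 30.2 CPM in all other cells of the same libraries. Tie1, an endothelial receptor tyrosine kinase, stood at 195 CPM in SD+RS and 208 CPM in SD endothelial cells, and at 2.71 and 3.55 CPM in the other cells. Vwf, the clotting factor stored by endothelium, had 172 and 250 CPM in endothelial cells and 2.18 and 3.71 CPM in the others. The endothelial transcription factor Sox17 had 691 and 656 CPM against 10.1 and 14.3 CPM. All these genes were far above the rest in both libraries, although the other cells still include those that the rule barred for mural UMIs. Of other vessel and immune cells, pericyte and smooth muscle markers were in part capped by the rule. Pericyte markers had 106 UMIs in SD+RS and 206 UMIs in SD (141 and 156 CPM), found in 29.2% and 31.9% of cells, and smooth muscle markers had 4 UMIs in each library. Summed over their lists, microglia markers 2 in SD+RS and 5 in SD, and perivascular macrophage markers 3 in SD+RS and 1 in SD.

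Some barcodes held RNA of a second cell type. A barcode with at least 5 UMIs of astrocyte, oligodendrocyte, microglia or red cell markers, or of Oxt, was called mixed, a rule chosen after seeing the data. Mixed barcodes made up 7 of the SD+RS cells (3.65%) and 32 of the SD cells (10.5%), and their median depth was 7306 and 7969.5 UMIs. Astrocyte markers marked 2 SD+RS and 20 SD barcodes, oligodendrocyte markers 3 and 11, and red cell markers 2 and 1. Red cell marker UMIs numbered 7518 in SD+RS and 9 in SD, and 99.9% of those in SD+RS lay in 2 cells. Astrocyte markers summed to 137 CPM in SD+RS and 619 CPM in SD, and to 54.7 and 92.8 CPM once mixed barcodes were left out. A doublet caller marked 4 SD+RS and 25 SD endothelial cells, all of them mixed barcodes. Results are therefore given with all cells and, where they differ, without mixed barcodes, which leaves 185 SD+RS and 272 SD cells.

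**Figure D1:**
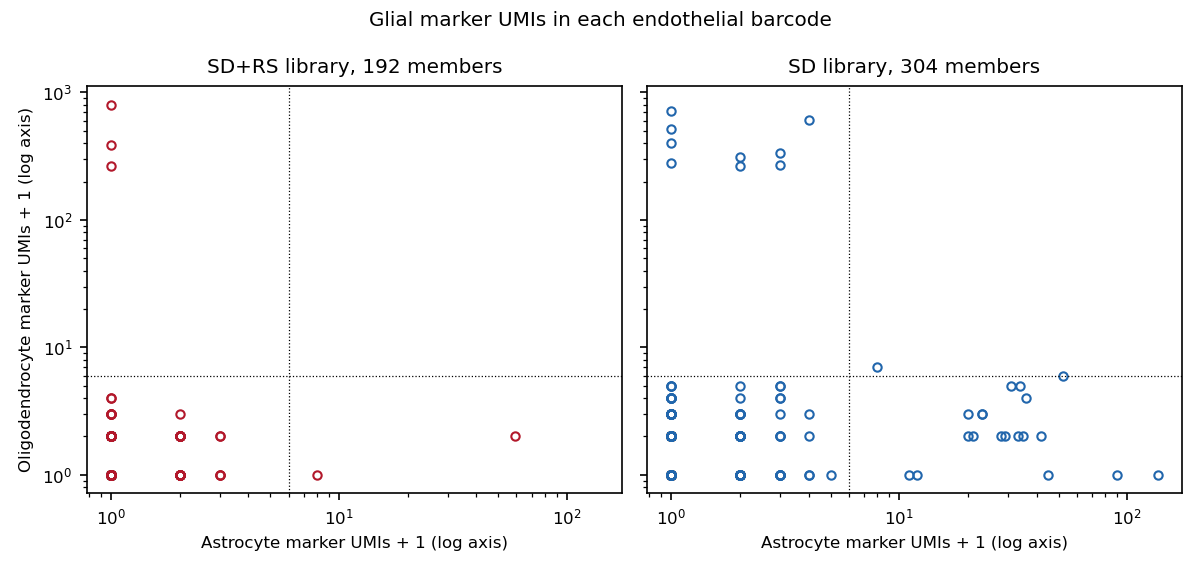
UMIs of astrocyte markers (x axis) and oligodendrocyte markers (y axis), each plus 1 on a log axis, in every endothelial barcode of the SD+RS library (left) and the SD library (right). Dotted lines mark 5 UMIs, the lower bound of a mixed barcode; 2 SD+RS and 20 SD barcodes lie at or beyond it for astrocyte markers.

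The endothelial cells of both libraries, clustered together without activity, stress, glucocorticoid, clock and sex-linked genes, gave 7 subclusters, 4 of them with genes of a vessel zone among their leading genes. The defining genes are a description of the clustering. An arterial-like group of 12 cells led by Cytl1, Mgp and Gkn3, with the elastin gene Eln, had arterial markers at 8112 CPM and 647 CPM in the other endothelial cells, and all 12 arterial markers were detected. A larger arterial-like group of 57 cells, led by Igfbp3, Sema3g, Bmx and Hey1, had them at 1902 CPM. A venous-like group of 192 cells, led by Il1r1, Icam1, Slc38a5 and Nr2f2, had venous markers at 2126 CPM and 402 CPM in the others. Its capillary markers were at 5705 CPM and 5092 CPM in the others, and at resolution 1 a group of 78 cells held venous markers at 3097 CPM while one of 95 cells had 746 CPM, so part of the cells carried the venous markers. A group of 107 cells was led by Ivns1abp and Cxcl12. Its leading genes included Mfsd2a, the lipid carrier of barrier capillaries, and also the mural gene Rgs5. Pericyte markers stood at 272 CPM in this group, against 133 CPM in the others. The group had capillary markers at 7467 CPM, against 5069 CPM in the others, and contained the 2 red cell barcodes. The remaining groups were 95 cells led by Oxt, Gad2 and Meg3, which are neuronal RNAs, and 2 groups made of mixed barcodes only, 12 cells led by myelin genes and 21 led by astrocyte genes. In the group led by Oxt capillary markers stood at 7212 CPM, against 5129 CPM in the others, and pericyte markers at 249 and 138 CPM. Raised levels of these 2 lists were thus shared with the group led by Cxcl12. The group led by Oxt held 7 SD+RS cells (3.65%) and 88 SD cells (28.9%). Only 1 of its 95 cells was a mixed barcode, so results without mixed barcodes keep this imbalance. Neuron markers stood at 186 CPM in SD+RS and 397 CPM in SD endothelial cells as a whole, and at 196 and 434 CPM without mixed barcodes. Oxt stood at 101 and 387 CPM in all endothelial cells, with 353 of its 511 SD UMIs in 1 cell. That cell was in the group led by Oxt, which had 391 Oxt UMIs in SD and 1 in SD+RS (71.0 CPM). Oxt thus led this group mostly through 1 barcode, and the name is only a label. In the group led by Cxcl12, Oxt stood at 173 CPM in SD+RS and 213 CPM in SD. Whether free RNA contributed was not tested. Other subcluster sizes are not compared between the libraries, because the RNA that defines some of them differs.

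Levels of zonal genes in the subclusters of each library are a description, since these genes helped to define them. Mgp, an inhibitor of calcification, stood at 3210 CPM in SD+RS and 2567 CPM in SD cells of the group led by Cytl1 and Mgp, and at 2.44 and 11.3 CPM in the venous-like group. Slc38a5, a glutamine carrier, stood at 351 CPM in SD+RS and 246 CPM in SD cells of the venous-like group and at 9.58 and 7.33 CPM in the arterial-like group led by Sema3g. Mfsd2a had 836 CPM in SD+RS and 737 CPM in SD cells of the group led by Cxcl12. The group led by Oxt had Slc38a5 at 497 CPM in SD+RS, from 7 UMIs in 7 cells, and 70.5 CPM in SD.

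**Figure D2:**
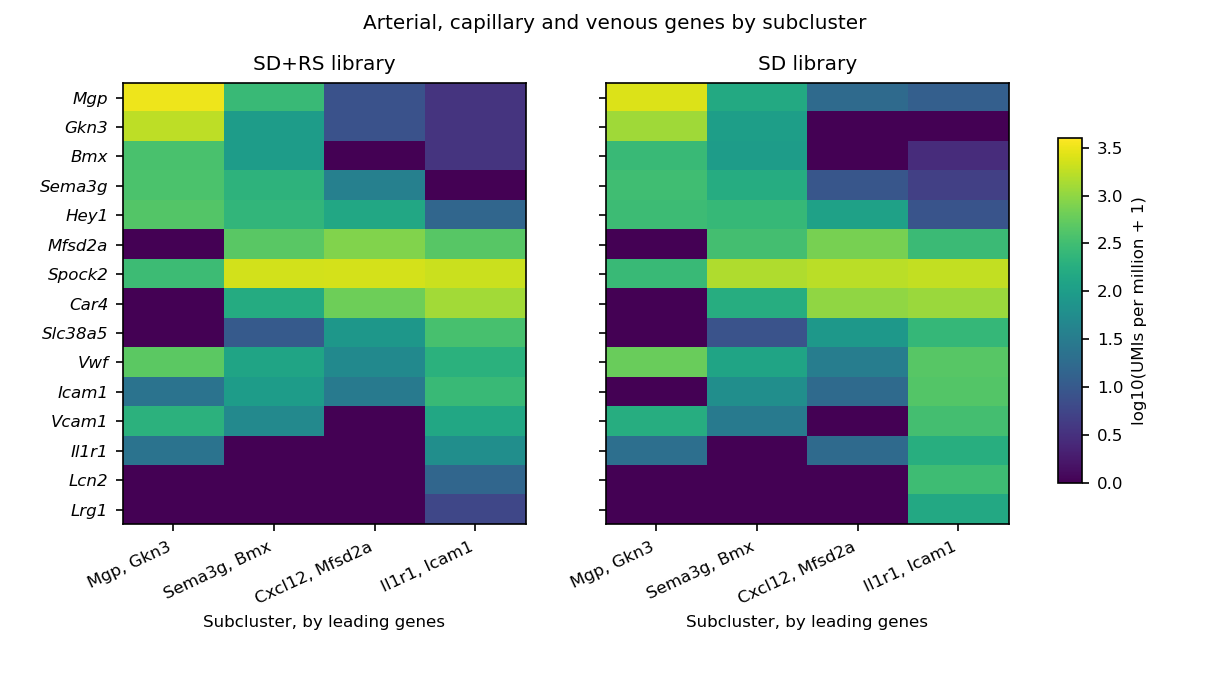
Levels of arterial, capillary and venous genes (rows) in 4 endothelial subclusters (columns, named by leading genes), as log10 of CPM plus 1, in the SD+RS library (left) and the SD library (right). Mgp is highest in the first column in both libraries, and Lcn2 and Lrg1 appear in the last column.

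Across all genes, 3513 genes had a mean level of at least 50 CPM over the 2 libraries. Of these 157 (4.47%) were at least 1.5 times higher in SD+RS, 223 (6.35%) at least 1.5 times lower, and the median log2 ratio was 0.04. Without mixed barcodes 160 of 3447 genes (4.64%) were higher and 181 (5.25%) lower. Of the 223 lower genes 135 stayed lower without mixed barcodes, 24 came within 1.5-fold and 63 dropped below the level limit; the last, Serpine2, turned higher (-0.69 with all cells and 0.88 without mixed barcodes). Of the 157 higher genes 107 stayed higher, 43 came within 1.5-fold and 7 dropped below the limit. Counts for gene lists below are read against these shares.

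Barrier genes were close to equal in the 2 libraries. Of 14 tight and adherens junction genes none was 1.5 times apart, and their median log2 ratio was 0.15. Cldn5, the main claudin of brain endothelium, which the rule used, had 6561 CPM in SD+RS and 5387 CPM in SD cells. Ocln, a tight junction protein, had 356 and 327 CPM (log2 ratio 0.12, 95% interval -0.10 to 0.35), and Tjp1, its cytoplasmic anchor, had 279 and 271 CPM. The 3 efflux pumps, among them P-glycoprotein (Abcb1a, 903 CPM in SD+RS and 789 CPM in SD), had a median of 0.04.

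The 20 barrier solute carriers had a median log2 ratio of 0.30, with 3 past 1.5-fold higher and 1 lower. The taurine carrier Slc6a6 had 2261 CPM in SD+RS and 1343 CPM in SD cells (0.75, 0.65 to 0.85), and it lay at 0.59 in mural cells. The iron exporter Slc40a1 had 285 and 167 CPM (0.77, 0.49 to 1.05), and Slc38a5 had 222 and 125 CPM (0.83, 0.51 to 1.15). The thiamine carrier Slc19a3 had 38.6 CPM in SD+RS and 77.3 CPM in SD cells, 2.01-fold lower. The glucose carrier Slc2a1 had 3179 CPM in SD+RS and 3948 CPM in SD cells (-0.31, -0.38 to -0.24), below the 1.5-fold limit. These carriers thus moved both ways, and the log2 ratios of Slco1a4 and Slco1c1, which carry organic anions and thyroid hormones, were 0.43 and 0.35.

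Zonal marker lists moved in part. Of 7 arterial markers 3 were higher in SD+RS: Tgfb2, Mgp (230 CPM in SD+RS and 124 CPM in SD; 0.89, 0.57 to 1.20) and Gkn3 (120 and 63.7 CPM; 0.91, 0.46 to 1.36). Few cells carried both: 142 of 173 SD+RS and 132 of 164 SD Mgp UMIs were in the 6 cells of each library in the group led by Cytl1 and Mgp, where the log2 ratio of Mgp was 0.32 (-0.03 to 0.68), and 63 of the 90 SD+RS Gkn3 UMIs were in 2 cells. Within the sexes these 2 turned round: Mgp had -0.69 (-1.12 to -0.27) in cells with Xist but no Y-linked UMIs and -0.24 in the converse cells, and Gkn3 had -0.45 and -0.29. Clu, a secreted chaperone that astrocytes also express, was lower (81.1 CPM in SD+RS and 213 CPM in SD), and its log2 ratio was -0.37 without mixed barcodes. Of 8 capillary markers 1 was lower, Rgcc, a cell cycle regulator (780 CPM in SD+RS and 1191 CPM in SD; -0.61, -0.75 to -0.47). Of 8 venous markers Slc38a5 was higher, and Il1r1, Lcn2 and Vcam1 were lower. The list medians were 0.37 for arterial, 0.40 for capillary and -0.46 for venous markers; the venous one was 0.15 with cells equally weighted and 0.63 without cells that hold Lcn2 UMIs, and the arterial one was -0.31 in the cells with Xist but no Y-linked UMIs.

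The signalling pathways that shape the vessel were mostly within 1.5-fold. Of 8 Notch genes none was past it (median 0.20). Of 17 genes of the Wnt barrier program 1 was higher (Tnfrsf19, 126 CPM in SD+RS and 82.6 CPM in SD), with a median of 0.26. In the VEGF, angiopoietin and apelin pathway 2 of 12 were higher: the VEGF receptor Kdr had 406 CPM in SD+RS and 257 CPM in SD cells (0.66, 0.43 to 0.89), and Calcrl, part of the adrenomedullin receptor, had 69.1 and 44.0 CPM. In the TGF-beta and BMP list 1 of 13 was higher, the ligand Tgfb2, with 152 CPM in SD+RS and 50.8 CPM in SD cells (1.58, 1.13 to 2.03). The BMP targets Id1 and Id3 had log2 ratios of 0.46 and 0.26.

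Immediate early genes were high in both libraries and nearly equal between them. Fos had 2677 CPM in SD+RS and 2849 CPM in SD cells (-0.09, -0.17 to -0.01), Jun 4976 and 4783 CPM, and Egr1 723 and 914 CPM (-0.34, -0.49 to -0.19). Of 9 such genes none was past 1.5-fold, with a median of 0.03 and of -0.10 without mixed barcodes. At 2000 UMIs per cell, a Fos UMI was found in 90.7% of 151 SD+RS cells (84.9 to 94.8%) and 84.8% of 256 SD cells (79.8 to 88.9%), where 41 and 48 shallower cells were left out; unthinned, the shares were 92.2% and 88.5%. In astrocytes at the same depth the shares were 3.70% in SD+RS and 3.20% in SD. Among other early genes the nuclear receptor Nr4a2 was higher (239 CPM in SD+RS and 136 CPM in SD), Maff was lower (70.5 CPM in SD+RS and 145 CPM in SD), and so was Ctgf (61.2 and 109 CPM). The flow-responsive factors Klf2 and Klf4 had log2 ratios of -0.09 and -0.20.

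Fos varied among cells together with other early genes. Across the thinned cells of a library, Spearman's rho between Fos and Junb over 151 SD+RS and 256 SD cells at equal depth was 0.57 in SD+RS and 0.58 in SD, and that between Fos and Klf2 was 0.46 and 0.53. Between Cldn5 and Flt1 it was -0.03 in SD+RS and 0.03 in SD, but the rule selected cells on both genes, so this pair is no contrast. Mixed barcodes were kept here, and the group led by myelin genes had Fos at 611 CPM in SD+RS and 579 CPM in SD. Their part in these values was not tested.

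**Figure D3:**
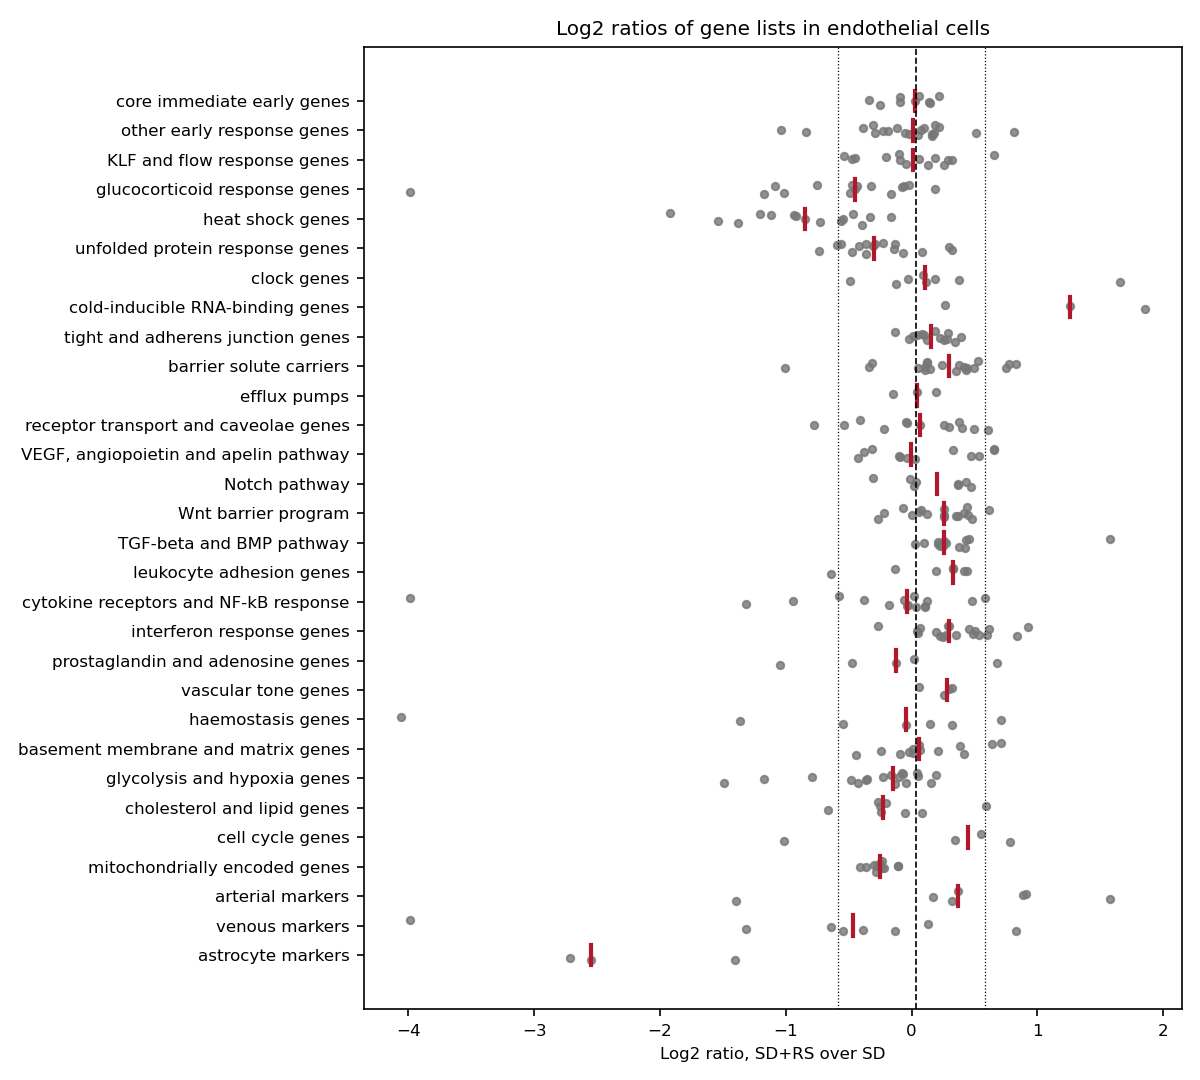
Log2 ratios of SD+RS over SD for the tested genes of each list (points) in endothelial cells, with the list median in red. The dashed line is the median of all tested genes (0.04) and dotted lines mark 1.5-fold; the heat shock genes all lie left of 0, and the astrocyte markers have a median of -2.55.

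Heat shock genes were lower in SD+RS. These genes encode chaperones that bind misfolded proteins, and the factor HSF1 induces them through heat shock elements in their promoters. All 15 tested members had ratios below 0, and 9 of 15 were past 1.5-fold, with a median of -0.85, and 8 of 14 with a median of -0.64 without mixed barcodes. In cells with no mural, smooth muscle or neuronal UMI the median was -0.46. In the 261 and 447 barred cells the median was -0.59, and in 103 SD+RS and 167 SD mural cells it was -1.19. The cytosolic Hspa8 had 1178 CPM in SD+RS and 2559 CPM in SD cells (-1.12, -1.23 to -1.01), and the small heat shock protein gene Cryab 201 and 584 CPM (-1.54, -1.80 to -1.29). Cryab, which oligodendrocytes also express, lay almost wholly in mixed barcodes, since 6 of its 151 SD+RS UMIs and 33 of its 771 SD UMIs remained without them, under the level limit. Its ratio was also not alike in the sexes: it was 0.20 (-0.19 to 0.59) in cells with Xist but no Y-linked UMIs, and the cells with Y-linked but no Xist UMIs had no Cryab UMI in SD+RS. The list median in these cells was -0.50 and -1.01, and Ahsa1, a cochaperone, was the other tested member above 0 in a sex (0.07 in the cells with Xist but no Y-linked UMIs). The inducible Hspa1a (chr17:34969190-34972156, GRCm38) had 529 CPM in SD+RS and 1373 CPM in SD cells (-1.38, -1.54 to -1.22). Its neighbour Hspa1b (chr17:34956436-34959238) had 152 and 572 CPM (-1.92, -2.21 to -1.63). These 2 genes are near-identical copies that the counting could split, so their separate values are uncertain. In the venous-like group Hspa1a had 565 CPM in SD+RS and 1661 CPM in SD cells, and in the group led by Cxcl12 it had 692 and 1892 CPM; in the arterial-like group led by Sema3g the values were 489 and 682 CPM, and the interval of that log2 ratio includes 0. At 2000 UMIs per cell, Hspa1b was found in 23.8% of SD+RS and 44.5% of SD cells, and in 0.494% and 2.85% of astrocytes.

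The heat shock element core was searched in the promoters of these genes, and 3 that hold it are shown. RefSeq windows (GRCm38.p6) from 250 bases before to 50 after the start are printed on the gene's strand, with the heat shock element core GAANNTTC, searched on both strands, in capitals. Hspa1a (chr17:34972107-34972406, minus strand) and Hspa1b (chr17:34959189-34959488, minus strand) hold it 104 bases before the start, and they differ at 4 of 300 positions; Hsph1 (chr5:149636287-149636586, minus strand), a chaperone of the Hsp110 family, holds it after the start.
Hspa1a: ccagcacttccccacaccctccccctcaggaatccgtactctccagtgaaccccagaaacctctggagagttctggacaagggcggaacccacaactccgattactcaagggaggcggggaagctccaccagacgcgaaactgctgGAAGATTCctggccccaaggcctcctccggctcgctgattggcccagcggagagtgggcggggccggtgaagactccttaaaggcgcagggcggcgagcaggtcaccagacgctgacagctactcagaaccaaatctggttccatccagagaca
Hspa1b: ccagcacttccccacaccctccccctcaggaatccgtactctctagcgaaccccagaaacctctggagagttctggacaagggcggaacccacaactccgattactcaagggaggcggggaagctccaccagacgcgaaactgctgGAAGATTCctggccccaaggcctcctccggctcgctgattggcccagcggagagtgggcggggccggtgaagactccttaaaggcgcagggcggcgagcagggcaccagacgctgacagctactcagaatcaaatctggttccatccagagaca
Hsph1: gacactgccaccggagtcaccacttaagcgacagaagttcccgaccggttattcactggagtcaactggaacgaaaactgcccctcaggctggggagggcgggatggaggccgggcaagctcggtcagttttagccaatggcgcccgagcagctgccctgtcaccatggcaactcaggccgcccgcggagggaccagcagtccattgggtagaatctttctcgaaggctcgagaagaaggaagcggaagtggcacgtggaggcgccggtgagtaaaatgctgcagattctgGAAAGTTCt
The core was found in 9 of the 14 heat shock genes with a window in the table (64.3%), not in Dnajb1, Ahsa1, Ahsa2, Stip1 or Hspa4l, in 192 of 2807 tested genes (6.84%), and in 2442 of 27025 genes overall (9.04%). Among genes at least 1.5 times lower in SD+RS it was found in 20 of 177 (11.3%), and among those at least 1.5 times higher in 9 of 130 (6.92%). A match in these letters is a description of the window.

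The unfolded protein response is the matching program of the endoplasmic reticulum. It had 2 of 16 genes lower and a median of -0.30, and 1 of 16 and a median of -0.19 without mixed barcodes. Its chaperone Hspa5 had 484 CPM in SD+RS and 534 CPM in SD cells (-0.14, -0.33 to 0.04), and Manf had 93.1 and 155 CPM (-0.73, -1.15 to -0.33).

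Glucocorticoid response genes were lower where they differed, 5 of 15, with a median of -0.45. Lcn2, which few cells carried, was among the 5. The list median was -0.72 in mural cells and -0.93 in all other cells. All other cells were summed without sorting by cell type, so their ratios here and below also depend on the mix of types in each library. That mix was not compared. Cdkn1a, a cell cycle inhibitor, had 808 CPM in SD+RS and 1635 CPM in SD cells (-1.02, -1.15 to -0.89), and Tsc22d3, an anti-inflammatory target of the glucocorticoid receptor, had 818 and 1374 CPM (-0.75, -0.88 to -0.62). Tsc22d3 turned round between the sexes, at -1.30 (-1.50 to -1.11) in cells with Xist but no Y-linked UMIs and 0.49 (0.23 to 0.76) in the converse cells. The lipase inhibitor Angptl4 had 35.9 and 81.1 CPM. The receptor gene Nr3c1 itself had 165 and 167 CPM (-0.02, -0.35 to 0.31). The level of Sgk1, a kinase induced by the hormone, was 597 CPM in SD+RS and 670 CPM in SD cells. Zbtb16, a transcription factor outside the list, had 9.31 CPM in SD+RS and 89.5 CPM in SD cells (-3.26, -4.61 to -2.18), a mean just under the level limit with all cells, and it lay at -2.04 in all other cells.

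Cold-inducible RNA-binding proteins and the clock output gene Dbp were higher in SD+RS. Cirbp (chr10:80165985-80172786), which is induced when cells cool, had 134 CPM in SD+RS and 37.1 CPM in SD cells (1.85, 1.35 to 2.38), and Rbm3 had 278 and 116 CPM (1.26, 0.95 to 1.57). The log2 ratio of Cirbp was 1.38 in mural cells and 0.64 in all other cells, and that of Rbm3 was 1.63 and 0.47. Srsf5, a splicing factor, had 626 CPM in SD+RS and 520 CPM in SD cells (0.27). Dbp had 215 CPM in SD+RS and 68.2 CPM in SD cells (1.66, 1.28 to 2.05), 0.71 in mural cells and 0.24 in all other cells. Of the 8 clock genes it was the 1 past 1.5-fold; Nr1d1 and Per1 had ratios of 0.19 and -0.49. In subclusters, Cirbp and Dbp were higher in SD+RS cells of the venous-like group (1.47 and 1.84), of the group led by Cxcl12 (2.87 and 1.67) and of the arterial-like group led by Sema3g (2.50 and 2.04). At 2000 UMIs per cell, Cirbp was found in 17.9% of SD+RS and 6.64% of SD cells, and in 23.8% and 12.5% of astrocytes.

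By a rule on size of ratio, interval and same direction in cells of both sexes, 12 genes with the highest ratios were named. After Cirbp, Dbp and Tgfb2 came Hist1h1c, a linker histone, with 302 CPM in SD+RS and 105 CPM in SD cells (1.52, 1.21 to 1.83). Tpd52l1 had 136 and 51.6 CPM (1.40, 0.94 to 1.86), and Trp53, the p53 tumour suppressor, had 82.4 and 33.4 CPM (1.31, 0.72 to 1.90). The linker histone H1f0 had 160 and 68.2 CPM (1.23). Lmo7, Gstt2, Med25 and the carrier Slc16a4 came last of the 12, with log2 ratios of 1.17, 1.13, 1.09 and 1.09. In mural cells Hist1h1c lay at 0.08 (-0.60 to 0.75) and H1f0 at 0.93. In the cells with endothelial UMIs that the rule barred, Tpd52l1 had 0.25, Trp53 0.44, Gstt2 0.39 and Med25 0.07 (-0.26 to 0.39). In these barred cells Hist1h1c had 0.60, Slc16a4 0.68, Cirbp 0.87, H1f0 0.95, Lmo7 1.14, Rbm3 1.20, Dbp 1.29 and Tgfb2 1.95. Tpd52l1 had 0.22 (-1.39 to 1.59) in cells with Y-linked but no Xist UMIs. Tgfb2 was found in 24.5% of SD+RS and 5.86% of SD cells at 2000 UMIs, and its log2 ratio was 2.37 in the cells with Xist but no Y-linked UMIs and 0.82 in those with Y-linked but no Xist UMIs.

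The 12 lowest genes by the same rule were Lcn2 and 11 that astrocytes express: Itih3, Gpr37l1, F3, Ntsr2, Atp1b2, Slc4a4, Bcan, Ntrk2, Gjb6, Slc6a11 and Aldoc. Itih3 had 6.65 CPM in SD+RS and 146 CPM in SD cells (-4.46), and Aldoc had 37.2 and 249 CPM (-2.74). Without mixed barcodes Gpr37l1 came to -0.86, Atp1b2 to -0.50 and Gjb6 to -0.40, and none of the 11 then passed the level limit; Ntrk2 had 2 SD+RS and 31 SD UMIs (-3.35, -6.46 to -1.38), and Ntsr2 had 1 and 10 UMIs, with an interval that includes 0. Their levels moved with the astrocyte markers, which reached 5 UMIs in 2 SD+RS and 20 SD barcodes; the part of remaining glial RNA was not tested.

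A like rule without mixed barcodes, which had no condition on equally weighted cells, was also applied. Among its 12 highest genes Edn3 took the place of Slc16a4. Its lowest genes differed from those above except for Lcn2. After Lcn2 and Zbtb16 came Map3k6, a stress kinase, with 12 UMIs in SD+RS and 128 UMIs in SD cells over all members (log2 ratio -2.60, -3.59 to -1.75). Plat, the tissue plasminogen activator that endothelium releases to dissolve clots, had 253 CPM in SD+RS and 650 CPM in SD cells (-1.36, -1.60 to -1.13), and it lay at -0.41 in mural cells and -0.60 in all other cells. Plat was found in 32.5% of SD+RS and 67.2% of SD cells at 2000 UMIs. The others were Hspa1b, Hspa1a, Pnmal2, Tmc7, Kbtbd11, Uchl1, Ndn and 8430408G22Rik. Pnmal2, a leading gene of the group led by Oxt, had 25.3 CPM in SD+RS and 84.1 CPM in SD endothelial cells. In all other cells it had 523 and 502 CPM. The mixed-barcode rule used no neuronal gene but Oxt, so leaving these barcodes out removes little neuronal RNA. Uchl1 and Ndn, which neurons express strongly, had -1.60 and -1.44 in endothelial cells and 0.00 and -0.18 in the barred cells, beside the neuron markers given above.

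**Figure D4:**
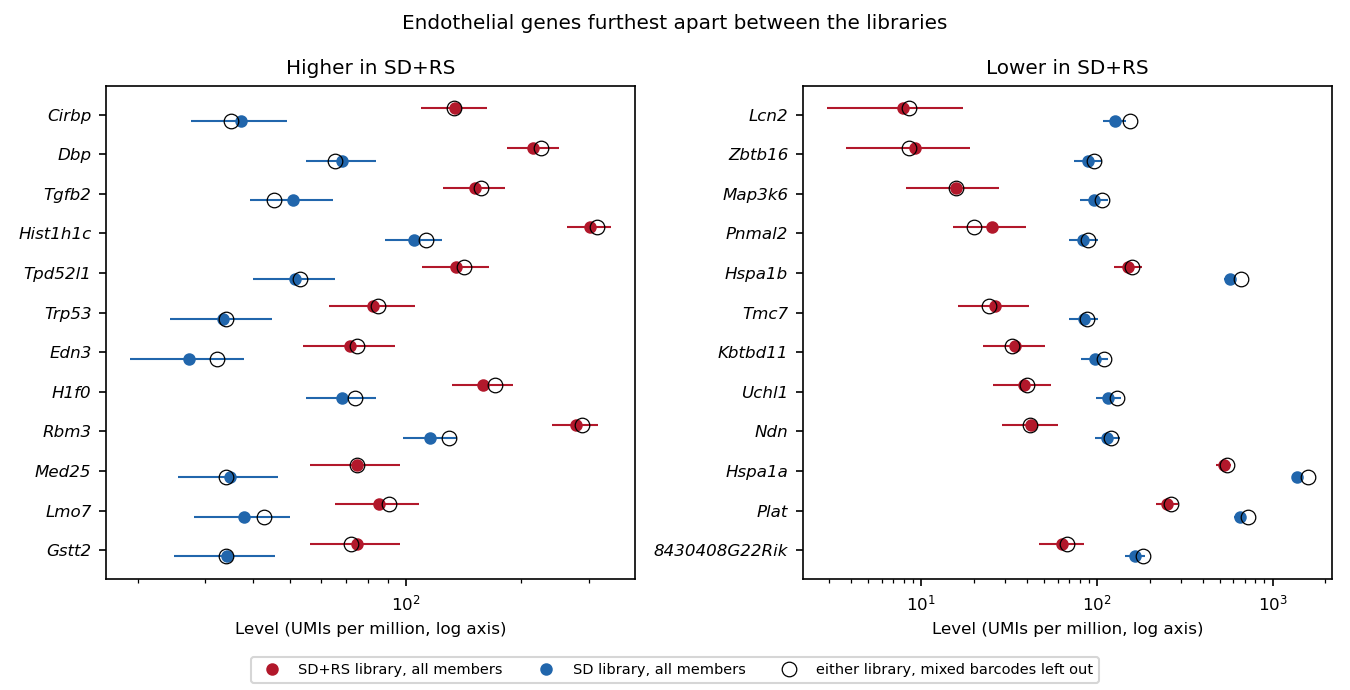
Levels in CPM (log axis) of the 24 genes named without mixed barcodes, higher in SD+RS on the left and lower on the right. Filled points are all members of the SD+RS library (red) and the SD library (blue) with exact Poisson 95% intervals for counting error, and open circles leave mixed barcodes out; Lcn2, the gene furthest apart, has 7.98 CPM in SD+RS and 127 CPM in SD.

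**Figure D5:**
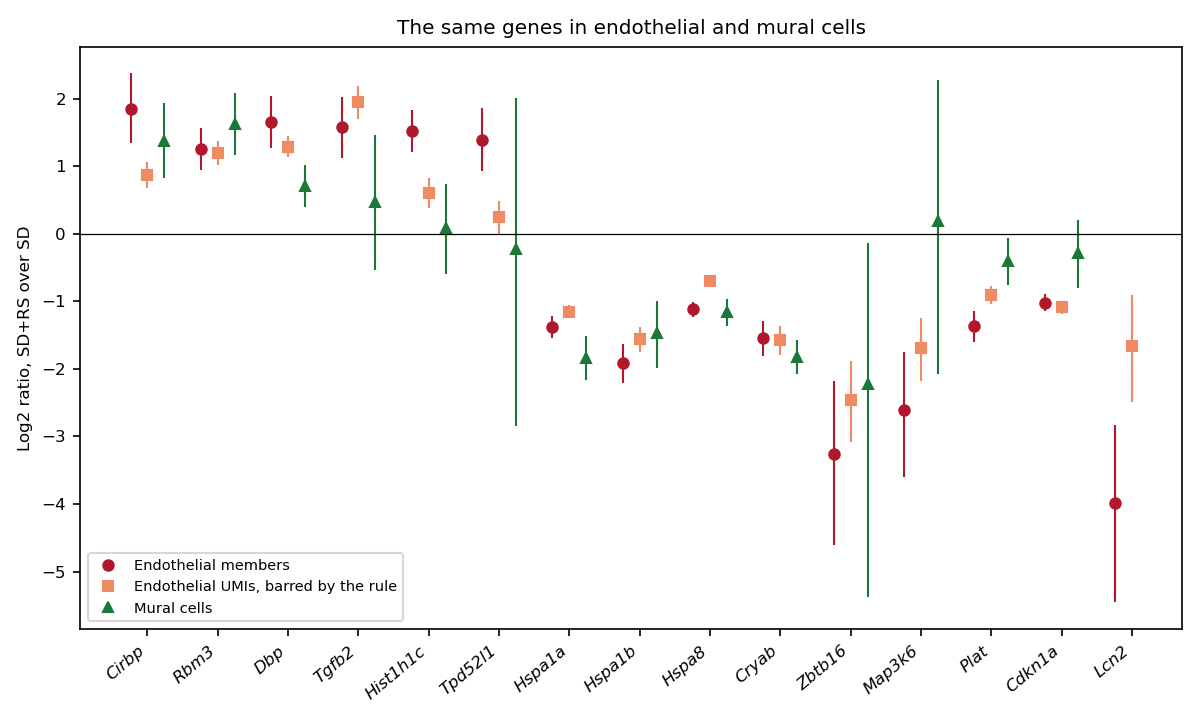
Log2 ratios of SD+RS over SD with 95% counting intervals for 15 genes in endothelial cells (red), in cells with endothelial UMIs that the rule barred (orange) and in mural cells (green). Cirbp and Rbm3 lie above 0 and Hspa1a, Hspa1b, Hspa8 and Cryab lie below 0 in all 3, while the mural point of Lcn2 is missing because neither library had a UMI. In endothelial cells 96.0% of SD+RS and 95.7% of SD Cryab UMIs were in mixed barcodes. Oligodendrocyte markers had a median of -3.03 in mural cells.

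Because the sexes were unevenly represented, ratios were also taken within each. In cells with Xist but no Y-linked UMIs, and then in those with Y-linked but no Xist UMIs, the log2 ratio was 1.30 and 2.67 for Cirbp, 1.45 and 0.89 (-0.29 to 1.99) for Dbp, -1.61 and -1.14 for Hspa1a, -1.42 and -1.15 for Plat and -2.83 and -3.85 for Zbtb16. The rule that named these 5 required the same direction in both, and the interval of Dbp in the second includes 0. Other genes described here as past 1.5-fold did not, beside Mgp, Gkn3, Cryab and Tsc22d3. In the same order of cells, Slc38a5 had 1.39 and -0.27, Calcrl 0.75 and -0.22, Ctgf -1.38 and 0.88, Lrp8 -1.09 and 0.23, Angptl4 -2.15 and 0.22, and Oxt -3.04 and 0.50. The difference in Oxt rested largely on 1 SD cell with 353 of 511 UMIs. Mixed barcodes held 74.2% of its SD and 3.95% of its SD+RS UMIs. Vcam1 had 0.54 (-0.02 to 1.11) and Ptgs2 1.38 (0.44 to 2.39) in the cells with Xist but no Y-linked UMIs, and neither had a UMI in the SD+RS cells with Y-linked but no Xist UMIs. Whether sex or the small number of the second kind of cell in SD+RS, 24, had a part was not tested. Without mixed barcodes Kdr, Hspg2, Cav2 and Pltp stayed higher but within 1.5-fold, at 0.57, 0.56, 0.47 and 0.50.

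Lcn2 and Lrg1, secreted proteins of the acute phase, were in few cells. Lcn2 had 7.98 CPM in SD+RS and 127 CPM in SD cells (-3.99, -5.45 to -2.84), from 6 UMIs in 4 SD+RS cells and 167 UMIs in 17 SD cells. In SD, 50 of its UMIs were in 1 cell. Lrg1 had 2 UMIs in 2 SD+RS cells and 80 UMIs in 6 SD cells, 79 of them in cells with Lcn2. The 17 SD cells with Lcn2 were deeper than the other SD endothelial cells, at a median of 8242 and 3115 UMIs, and they had venous genes at high levels. Vcam1, an adhesion molecule for leukocytes, stood at 998 CPM in them and 46.8 CPM in the others, Icam1 at 980 and 86.7 CPM, Vwf at 1113 and 127 CPM, and the interleukin-1 receptor Il1r1 at 508 and 21.7 CPM. Slco1a4 had 1536 and 1483 CPM. The 6 SD cells with Lrg1 held much of this: 133 of the 219 Vcam1 UMIs in SD, where the 17 cells with Lcn2 held 165, and 60 of the 109 Il1r1 UMIs, where the 17 held 84.

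Of 16 cytokine receptor and NF-kB genes none was higher and 3 were lower, against 6.35% of all tested genes: Lcn2, Il1r1 (33.2 CPM in SD+RS and 82.6 CPM in SD) and the oncostatin receptor Osmr (42.5 and 81.9 CPM), with a list median of -0.03. Without mixed barcodes 4 of 15 were lower, against 5.25% of all tested genes. Of 7 leukocyte adhesion genes Vcam1 was lower (106 CPM in SD+RS and 166 CPM in SD), and the median was 0.33. Of 19 interferon response genes 4 were higher, against 4.47% of all tested genes, with a median of 0.29: the immunoproteasome subunit Psmb8 had 177 CPM in SD+RS and 93.2 CPM in SD cells (0.92, 0.56 to 1.29), and Ifit3 had 67.8 and 37.9 CPM. Without mixed barcodes 2 of the 19 were higher. The prostaglandin synthase Ptgs2 was lower, at 45.2 CPM in SD+RS and 93.2 CPM in SD cells (-1.04, -1.64 to -0.49), and 26 of its 34 SD+RS UMIs and 71 of its 123 SD UMIs lay in 1 cell of each library. A few cells carried several of these calls. With the cells that hold Lcn2 UMIs left out of both libraries, which was chosen after seeing the data and leaves 188 SD+RS and 287 SD cells, Vcam1 turned to 79.7 CPM in SD+RS and 46.8 CPM in SD (0.77, 0.21 to 1.33) and Ptgs2 to 44.7 and 20.8 CPM (1.10, 0.30 to 1.93). Il1r1 came to 23.8 CPM in SD+RS and 21.7 CPM in SD (0.13, -0.85 to 1.08), while Osmr stayed lower (39.1 and 69.3 CPM; -0.82, -1.50 to -0.19).

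Of 13 basement membrane and matrix genes 2 were higher, the heparan sulfate proteoglycan Hspg2 (97.1 CPM in SD+RS and 62.2 CPM in SD) and Mmrn2 (202 and 124 CPM), and the collagen Col4a1 had 262 and 252 CPM. Of 13 receptor transport and caveolae genes Cav2 was higher (473 and 310 CPM) and Lrp8, a lipoprotein receptor, was lower (97.1 and 166 CPM), while the transferrin receptor Tfrc had 383 and 271 CPM (0.50, 0.27 to 0.72). Of 7 haemostasis genes Tm4sf1 was higher (1025 and 626 CPM), and Plat and F3 were lower, F3 with a log2 ratio of -4.06 and of -1.98 without mixed barcodes. The 4 vascular tone genes, among them the nitric oxide synthase Nos3 (176 CPM in SD+RS and 168 CPM in SD), had none apart.

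Energy genes were mostly within 1.5-fold, and most lay below 0. The 12 mitochondrially encoded genes were all below 0, with a median of -0.25 and none past 1.5-fold, while their median in mural cells was 0.17. Of 18 glycolysis and hypoxia genes 14 lay below 0, with a median of -0.14, and 3 were lower, against 6.35% of all tested genes. Bnip3 and Ankrd37, targets of hypoxia factors, had 34.6 and 78.1 CPM and 71.8 and 124 CPM in SD+RS and SD cells. Ldhb had 53.2 and 149 CPM, but -0.46 as its log2 ratio without mixed barcodes. Without these barcodes 2 of the 18 were lower, against 5.25% of all tested genes. Pltp, a phospholipid transfer protein, was higher (3459 CPM in SD+RS and 2297 CPM in SD; 0.59).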

How the data were processed

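The authors deposited, for each library, a matrix of UMI counts per gene and barcode, and the file headers name Cell Ranger 3.0.2; mm10 and Seurat 4.0.4 are given per the submitters' processing notes. Other deposited tables were not used here. Counts were summed over the endothelial cells of a library and scaled to CPM. With 1 library per group there was no test; levels have exact Poisson, ratios exact conditional binomial and shares exact Clopper-Pearson intervals at 95%, and a count of 0 was set to 3 counts in a ratio. A gene was called at 1.5-fold or more with a mean of at least 50 CPM. Named genes were the 12 highest and 12 lowest ratios among called genes whose interval excluded no difference and whose direction was the same in Xist-only cells (Xist but no Y-linked UMIs), in Y-only cells (the converse) and with all cells equally weighted, leaving out sex-linked, mitochondrial and haemoglobin genes, plus members of the gene lists. The version without mixed barcodes had no condition on equally weighted cells. The members and lists were chosen with earlier results of these data known.

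Doublets were called per library with scrublet as run in scanpy 1.11.5 at an expected rate of 6%, marking 297 SD+RS cells (3.85%) and 580 SD cells (5.87%); they were kept, and their removal is an alternative. Subclusters came from 1500 variable genes, 20 components, 15 neighbours and Leiden resolution 0.5. Mural cells had at least 10 mural UMIs and at most 3 endothelial and 3 neuronal ones. Gene coordinates are from GENCODE on GRCm38. Ratios, intervals and calls were tested on simulated counts.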

Additional observations from a re-analysis of the deposited data

Results flagged for a closer look

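Cells were split by sex from Xist and Y-linked UMIs, and 3 gene lists had medians of opposite sign; the difference between the sexes was not tested, and 24 SD+RS and 75 SD cells were Y-only. For the genes tested in all endothelial cells, the median log2 ratio of SD+RS over SD, with a count of 0 set to 3 counts, for venous markers was 0.43 in Xist-only cells and -1.89 in Y-only cells. For the cytokine receptor and NF-kB genes it was 0.10 and -1.07. For the oligodendrocyte markers, which lie mostly in mixed barcodes, it was 0.13 and -2.93. Among single venous genes, Icam1 had 1.33 (0.80 to 1.87) in Xist-only cells and -1.60 (-2.54 to -0.79) in Y-only cells, and Vwf had 0.32 (-0.11 to 0.75) and -2.18 (-3.27 to -1.27). The 17 SD cells with Lcn2 UMIs had Icam1 at 980 CPM and Vwf at 1113 CPM, against 86.7 and 127 CPM in the other SD cells. Whether these few cells carried the opposite signs was not tested.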

How the results depend on the processing

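No paired analysis was possible because each group is 1 library. The 36 genes chosen by their ratio, with or without mixed barcodes, kept their direction in the 9 alternatives that the rules did not use. Lcn2 had no value where cells with its UMIs are left out. Agreement within each sex was required by both rules, and agreement with cells equally weighted by the rule on all cells. The 36 were chosen for extreme ratios, and most of the 9 alternatives keep nearly the same cells or only rescale them. The kept direction is therefore no support. Removing doublet calls took out mixed barcodes only, and the astrocyte genes carried by mixed barcodes kept their direction too. Genes named as list members are not among the 36, and those that turned round within a sex are given above. The counts of genes at least 1.5 times higher and lower in SD+RS, 157 and 223, came to 523 and 647 at a minimum of 20 CPM, 56 and 88 at 100 CPM, and 1994 and 2449 with no filter. They were 676 and 521 in Y-only cells; the higher count was 238 in Xist-only cells, 329 with cells thinned to 2000 UMIs and 265 in cells with no mural, smooth muscle or neuronal UMI. In cells with no such UMI the members' share was 1.36% in SD+RS and 1.25% in SD, and the list medians were 0.17 for core immediate early genes, -0.46 for heat shock genes and 0.050 for leukocyte adhesion genes. Where a list is recomputed, its median covers the genes past the level limit in those cells. In Xist-only cells the medians were -0.31 for arterial, 0.21 for capillary and 0.57 for venous markers, 0.30 for haemostasis genes and -0.48 for heat shock genes. In Y-only cells they were 2.28 for cold-inducible genes, -1.10 for cytokine receptor genes, -0.19 for efflux pumps, 0.50 for further endothelial markers, -0.26 for other early genes and -1.89 for venous markers, and the members' share was 1.68% in SD+RS and 1.90% in SD. Cells equally weighted gave 0.15 for venous markers, leaving out cells with Lcn2 UMIs 0.63, thinned cells 0.86 for arterial markers, and cells without mixed barcodes -0.10 for core immediate early genes. The cause was not tested. Splits of higher among called genes moved between 33.7% when centred on the median gene and 56.5% in Y-only cells, with 41.3% as reported. At a median near 3000 UMIs a cell, genes with a mean under 50 CPM were not called, and ratios given for them rest on few UMIs.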
